A study of Rattus norvegicus with 13 samples.

Results

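The genes of glycolysis and of the citric acid cycle, with those that link the pathways, were examined in rat cortical neurons and in their axons. The list names 38 genes, and a gene counted as measured where at least 1 probe set of the array carried its symbol and no other symbol. This held for 35 genes with 51 probe sets, out of 14217 genes and 31099 probe sets in all. *Pkm*, *Dlat* and *Fh* had no such probe set. Of the 35 genes, 13 act in glycolysis, 5 in lactate metabolism and in the transport of glucose and lactate, 5 in pyruvate dehydrogenase and its kinases, 9 in the citric acid cycle and 3 in the malate-aspartate shuttle.

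The cultures grew for 13 days in microfluidic platforms, devices with separate compartments from which axons can be collected without their cell bodies. Regenerating axons (3 arrays) were cut on day 11 and collected on day 13, after 2 days of regrowth. Neurons (3 arrays) came from the neuronal compartment of uncut cultures and uninjured axons (7 arrays, from 3 culture batches) from the axonal side, both on day 13. All groups were rat cortical cultures (*Rattus norvegicus*) in Neurobasal E medium with the B27 supplement, and the labels name no strain, genotype or donor age. Each GeneChip array held polyadenylated RNA pooled from 3 platforms and amplified in 2 rounds. Nothing in the labels ties each array to a culture of its own, so p-values measure the spread between these arrays, which may be technical, and the number of arrays limits the precision.

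Each deposited value is a linear ratio, so it shows relative abundance and neither a level nor presence in axons. Uninjured arrays 1 to 3 and 4 to 6 were each divided by the median of their own set, so the median over the 6 arrays is near 1 for every gene (0.961 to 1.03 among the 35), and array 7 reads 1 in every row and carries no measurement. The range of the uninjured arrays therefore leaves out any difference between the sets, and overlap with other groups is judged against this range. The regenerating and neuron arrays were taken to be ratios to the uninjured level. The sources used here do not state this, nor that both groups share a reference. A gene's value is the mean over its probe sets of the log2 ratio, and ratios given for a gene are that mean turned back to the linear scale. Differences are given as log2 ± SE of a limma fit across all 14217 genes (n = 3 arrays in the group named first), with Benjamini-Hochberg adjusted p and a threshold of 0.05. Against uninjured axons the SE includes an error of 1 array assigned to the reference.

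Glycolysis splits glucose into pyruvate in the cytosol and yields ATP without oxygen. Pyruvate is reduced to lactate by lactate dehydrogenase or enters the mitochondria, where pyruvate dehydrogenase turns it into acetyl-CoA for the citric acid cycle. The malate-aspartate shuttle carries the reducing power of cytosolic NADH into the mitochondria. Axons are known to draw on both routes for ATP, which pays for ion pumping, transport and growth.

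Neurons were set against uninjured axons to ask which transcripts are relatively more abundant in the neuronal compartment. Nearly the whole pathway was higher in neurons, from glucose phosphorylation to the last oxidation of the cycle. Of the 35 genes, 30 were higher in neurons, where 36.9% of all genes were, and *Hk2*, the inducible hexokinase, was the 1 gene that was lower, where 23.0% of all genes were. *Slc2a1*, *Sucla2*, *Pdk1* and *Pdk2* did not pass. All 3 neuron arrays lay above all 6 uninjured arrays for 33 of the 35 genes (41.8% of all genes) and below them for *Hk2* (30.3% of all genes). The median difference was 3.05 over the 35 genes and 0.22 over all genes. After all arrays were given a common median, 29 genes passed as higher and 1 as lower. The lost call was that of *Slc2a3*. In each neuron array the median ratio of the 35 genes was 8.97, 6.27 and 9.85, beside 1.17, 1.08 and 1.25 over all genes.

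**Figure D1:**
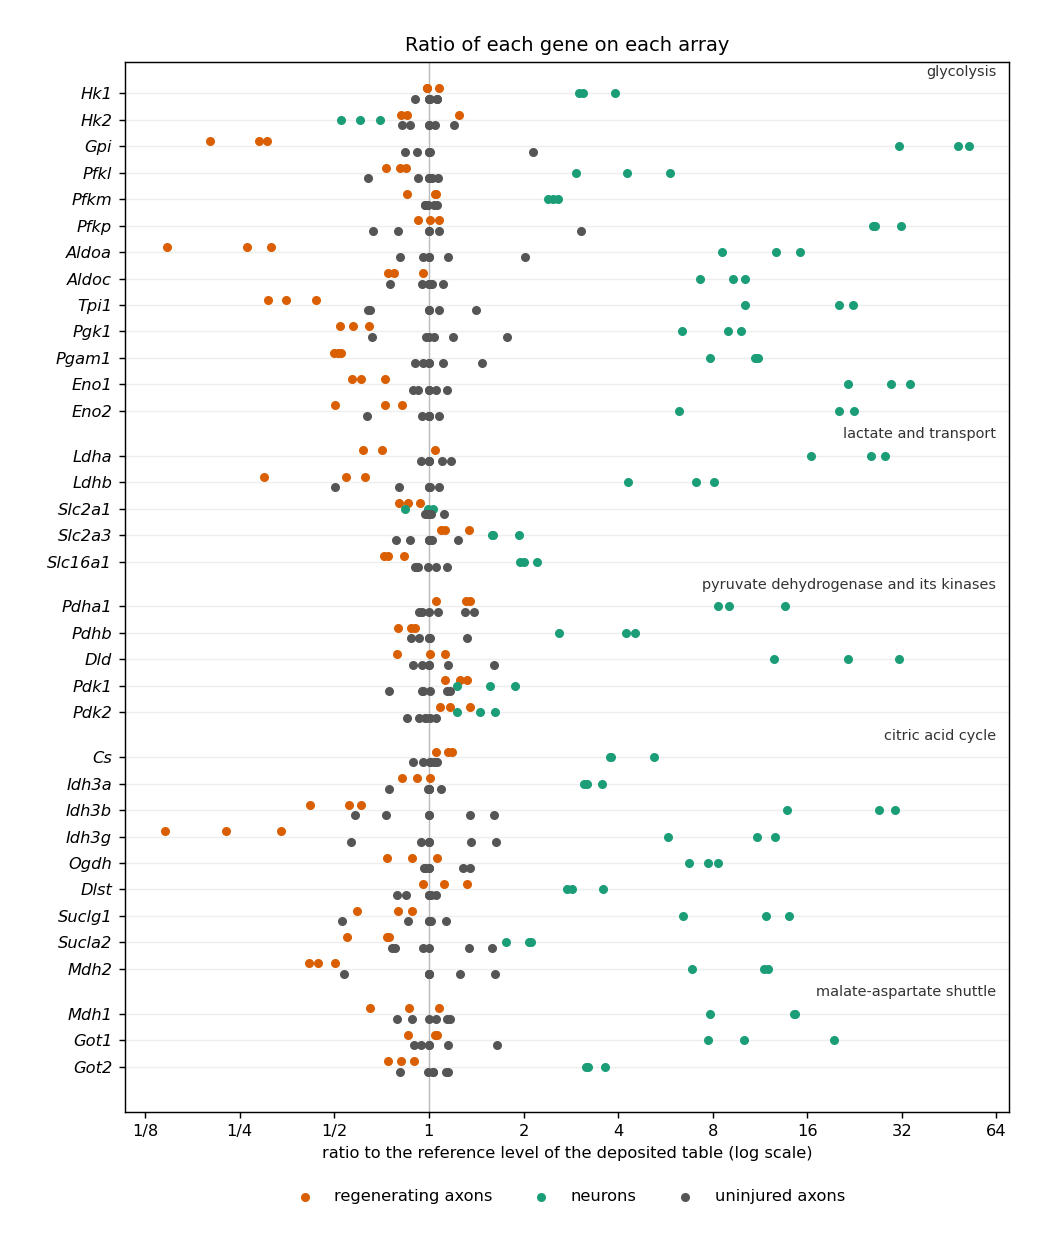
Ratio of each of the 35 genes on each array (x axis, log scale, deposited ratio with 1 as the reference level), ordered by role, with 3 regenerating, 3 neuron and 6 uninjured arrays as points. Neuron points lie to the right of the uninjured ones for 33 genes, with *Gpi* at 31.3 to 52.2 and *Hk2* on the left at 0.527 to 0.698.

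*Gpi*, glucose-6-phosphate isomerase, read 48.2, 31.3 and 52.2 in the neuron arrays, against 0.837 to 2.14 in uninjured axons. All 3 neuron arrays were far above every uninjured array, and the difference of 5.42 ± 0.45 (42.9-fold, adjusted p = 1.71e-05) was the 32nd highest of 14217 genes. *Hk2* read 0.604, 0.698 and 0.527 in neurons, against 0.823 to 1.21 in uninjured axons. The groups did not overlap, and the difference was -0.72 ± 0.24 (adjusted p = 0.0266). Without neuron array 1 or neuron array 3 the *Hk2* difference no longer passed (adjusted p = 0.0534 and 0.0587).

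Sequences before the start sites of 4 genes are shown to set these extremes side by side: *Gpi* with the largest neuronal excess, *Ldha* with the most motif matches, *Idh3g* with the lowest mean in regenerating axons and *Hk2* as the gene lower in neurons. They run from 250 bases before to 50 bases after the annotated start, on the coding strand, and come from RefSeq on the GRCr8 assembly, which holds such a window for 32 of the 35 genes. Capitals mark ACGTG and GCGTG on either strand (CACGT and CACGC where the match is on the other strand). These are core letters of the element bound by hypoxia-inducible factor, which is known to induce glycolytic genes.
*Gpi*, chr1:95993212-95993511, minus strand: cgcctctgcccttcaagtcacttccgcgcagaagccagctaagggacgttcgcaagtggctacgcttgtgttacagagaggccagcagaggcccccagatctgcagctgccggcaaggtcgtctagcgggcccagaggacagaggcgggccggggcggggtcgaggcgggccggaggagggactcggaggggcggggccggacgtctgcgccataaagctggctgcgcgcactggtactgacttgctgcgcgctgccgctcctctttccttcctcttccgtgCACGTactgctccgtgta
*Ldha*, chr1:106507842-106508141, plus strand: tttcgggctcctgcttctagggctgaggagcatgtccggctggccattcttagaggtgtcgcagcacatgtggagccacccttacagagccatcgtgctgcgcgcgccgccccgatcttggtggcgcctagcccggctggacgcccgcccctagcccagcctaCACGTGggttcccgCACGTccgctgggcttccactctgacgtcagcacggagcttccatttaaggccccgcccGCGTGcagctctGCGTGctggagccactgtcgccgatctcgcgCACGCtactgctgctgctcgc
*Idh3g*, chrX:156675433-156675732, minus strand: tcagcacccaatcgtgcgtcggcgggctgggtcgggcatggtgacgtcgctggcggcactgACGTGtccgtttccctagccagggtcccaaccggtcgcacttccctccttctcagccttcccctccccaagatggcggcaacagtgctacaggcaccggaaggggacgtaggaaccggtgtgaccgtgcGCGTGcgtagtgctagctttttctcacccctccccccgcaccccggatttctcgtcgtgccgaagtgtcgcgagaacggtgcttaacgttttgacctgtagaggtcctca
*Hk2*, chr4:116841226-116841525, minus strand: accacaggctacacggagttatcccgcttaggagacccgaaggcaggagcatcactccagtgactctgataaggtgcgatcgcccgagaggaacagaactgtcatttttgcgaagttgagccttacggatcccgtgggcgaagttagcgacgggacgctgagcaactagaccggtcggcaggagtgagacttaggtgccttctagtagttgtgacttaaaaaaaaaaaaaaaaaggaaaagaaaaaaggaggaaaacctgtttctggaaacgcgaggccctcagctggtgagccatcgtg

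The *Ldha* window held 3 matches to each of both motifs, with matches on opposite strands of the same letters counted separately. The *Gpi* window held 1 ACGTG, that of *Idh3g* held 1 of each, and neither motif is in the letters of the *Hk2* window. Neither motif is in the windows of *Aldoa*, *Idh3b*, *Tpi1*, *Suclg1* and *Mdh1* either, and these genes were higher in neurons. The lack of both motifs is thus not particular to *Hk2*. The windows shown were picked, that of *Ldha* by its motif count, and do not stand for the other genes. Among the 32 genes with a window, 13 (40.6%) held ACGTG, as did 19.3% of 33469 windows in all, and 18 (56.2%) held GCGTG, as did 29.7% of all windows. At least 1 of these motifs was in 22 of the 32 (68.8%) and in 41.6% of all windows. The GC box core GGGCGG, whose matches can share bases with those of GCGTG, was in 19 of the 32 (59.4%) and in 33.1% of all windows. The members have 1 window each, whereas the windows in all were not limited to 1 per gene or to measured genes. They were not matched in base composition either, so the shares are not on the same base. A match describes these letters and not binding.

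Among the 13 glycolysis genes, 12 were higher in neurons and *Hk2* was lower, with a median difference of 3.30. *Hk1*, the hexokinase that is constitutive in brain, read 3.01, 3.09 and 3.92 in neurons, against 0.904 to 1.06 in uninjured axons (1.73 ± 0.20). Hexokinase thus had its isoforms on opposite sides of the uninjured level, although the probe sets of *Hk1* were themselves divided, as described further on. The difference of *Hk2* lay near the median of 15 isoforms known mainly from liver, muscle, blood or testis (-0.84). Whether the *Hk2* probe set reads above background could not be checked from ratios. Phosphofructokinase, which commits sugar to glycolysis, was higher for all 3 of its subunit genes. *Pfkp*, the platelet type, read 26.3, 26 and 31.8 in neurons, against 0.662 to 3.05 in uninjured axons (4.80 ± 0.64, 27.9-fold). The liver type *Pfkl* (2.07 ± 0.37) and the muscle type *Pfkm* (1.31 ± 0.16) were higher by less.

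The steps that follow were all higher in neurons. The aldolases, which cleave the sugar, differed by 3.56 ± 0.46 for *Aldoa* and 3.14 ± 0.24 for *Aldoc*, the form also used as an astrocyte marker. *Tpi1*, triosephosphate isomerase, read 20.1, 10.1 and 22.3 in neurons, against 0.640 to 1.41 in uninjured axons (4.05 ± 0.51). *Pgk1* and *Pgam1*, phosphoglycerate kinase and mutase, were 8.27-fold and 9.85-fold higher. *Eno1*, the ubiquitous enolase, read 29.6, 21.5 and 34.1 in neurons, against 0.891 to 1.14 in uninjured axons (4.80 ± 0.26, adjusted p = 3.70e-06). *Eno2*, the neuronal enolase, read 20.2, 6.27 and 22.5 in neurons, against 0.637 to 1.08 in uninjured axons (3.83 ± 0.60). Neuron array 2 gave the low value of *Eno2*, whose SD among neuron arrays (1.02) was the widest of the 35 genes.

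Lactate dehydrogenase and the transporters divided by gene value. *Ldha*, the subunit known to favour lactate formation, read 25.5, 16.4 and 28.3 in neurons, against 0.945 to 1.18 in uninjured axons (4.51 ± 0.28, 22.8-fold). *Ldhb*, the subunit known to favour lactate use, read 7.09, 4.30 and 8.10 in neurons, against 0.504 to 1.08 in uninjured axons (2.65 ± 0.44, 6.28-fold). Both groups of arrays were fully apart for either subunit. *Slc16a1*, the monocarboxylate transporter MCT1, was 2.06-fold higher, and *Slc2a3*, the neuronal glucose transporter GLUT3, was 1.70-fold higher (0.77 ± 0.25, adjusted p = 0.0238). Both values are means over probe sets that disagreed when fitted by themselves. These differed by 2.63 ± 0.29 and -0.55 ± 0.29 for *Slc16a1* and by 1.75 ± 0.34 and -0.21 ± 0.26 for *Slc2a3*. For each gene only the higher probe set passed. The *Slc2a3* difference no longer passed without neuron array 3 (adjusted p = 0.0535) or with the arrays shifted to the same median (0.55, adjusted p = 0.0706). *Slc2a1*, the glucose transporter GLUT1 of endothelium and glia, read 1.03, 0.839 and 0.996 in neurons, against 0.971 to 1.12 in uninjured axons. Its groups overlapped (-0.07 ± 0.18, adjusted p = 0.741).

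At the entry to the mitochondria, the enzyme and its kinases also divided by gene value. All 3 measured genes of pyruvate dehydrogenase were higher. *Dld*, the shared dihydrolipoamide dehydrogenase, read 21.6, 12.5 and 31.3 in neurons, against 0.889 to 1.61 in uninjured axons (4.35 ± 0.45, 20.4-fold). The E1 subunits *Pdha1* and *Pdhb* were 10.1-fold and 3.68-fold higher. The kinases that inhibit the enzyme had small differences that did not pass, 0.62 ± 0.29 for *Pdk1* (adjusted p = 0.0930) and 0.51 ± 0.20 for *Pdk2* (adjusted p = 0.0501). The 3 neuron arrays were nonetheless above all uninjured arrays for both kinases. *Pdk2* passed without neuron array 2 (adjusted p = 0.0150), as did *Pdk1* (adjusted p = 0.0309). Each kinase also had a probe set that was higher in neurons when fitted by itself. It differed by 1.36 ± 0.42 for *Pdk1* (adjusted p = 0.0203) and by 0.95 ± 0.26 for *Pdk2* (adjusted p = 0.0126). The other probe set differed by -0.13 for *Pdk1* and 0.07 for *Pdk2* and did not pass.

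In the citric acid cycle, 8 of 9 genes were higher in neurons, with a median difference of 2.92. *Cs*, citrate synthase at the head of the cycle, read 3.77, 3.79 and 5.22 in neurons, against 0.890 to 1.06 in uninjured axons (2.07 ± 0.22). The NAD-dependent isocitrate dehydrogenase has 3 kinds of subunit. The regulatory *Idh3b* was 22.5-fold and *Idh3g* 9.33-fold higher, while the catalytic *Idh3a* was 3.28-fold higher, with 3.18, 3.12 and 3.56 in neurons, against 0.746 to 1.09 in uninjured axons. *Ogdh* and *Dlst*, subunits of oxoglutarate dehydrogenase, were 7.57-fold and 3.04-fold higher. *Mdh2*, the mitochondrial malate dehydrogenase, read 11.7, 6.88 and 12 in neurons, against 0.537 to 1.62 in uninjured axons (3.31 ± 0.49). *Suclg1*, the alpha subunit of succinyl-CoA ligase, was 10.2-fold higher. Its ADP-forming beta subunit *Sucla2* read 2.09, 1.75 and 2.11 in neurons, against 0.765 to 1.59 in uninjured axons, and these groups did not overlap although the difference did not pass (0.98 ± 0.39, adjusted p = 0.0510). *Sucla2* passed without uninjured array 1, 3, 4 or 6 or without neuron array 2 (adjusted p from 0.0243 to 0.0466).

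All 3 genes of the malate-aspartate shuttle were higher in neurons. The cytosolic malate dehydrogenase *Mdh1* read 14.5, 7.87 and 14.7 in neurons, against 0.792 to 1.16 in uninjured axons (3.57 ± 0.36, 11.9-fold). The cytosolic aspartate aminotransferase *Got1* read 10.1, 7.75 and 19.5 in neurons, against 0.899 to 1.65 in uninjured axons (3.52 ± 0.47). Its mitochondrial counterpart *Got2* was 3.33-fold higher as a mean over probe sets that differed by 3.89 ± 0.29 and -0.42 ± 0.23. Neuron array 2 was the lowest neuron array for 29 of the 35 genes (50.4% of all genes) and neuron array 3 the highest for 30 (47.8% of all genes).

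**Figure D2:**
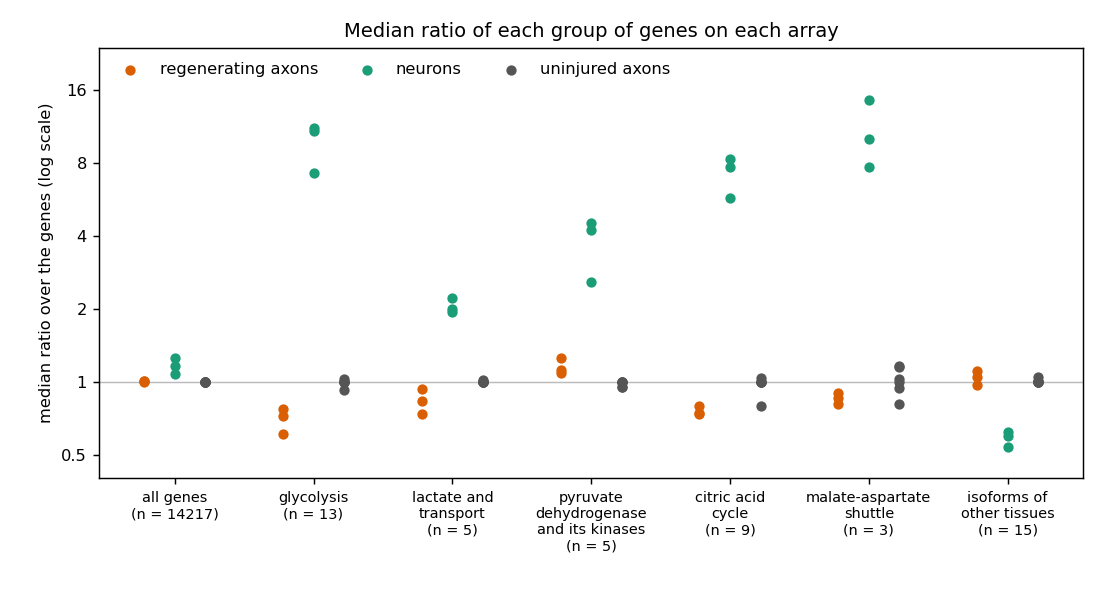
Median ratio (y axis, log scale) on each array over all genes, over the 5 groups of members and over 15 isoforms known mainly from other tissues, with regenerating axons, neurons and uninjured axons from left to right. In neurons the glycolysis median is 10.9, 7.32 and 11.2 and the median of the isoforms of other tissues is 0.598, 0.622 and 0.540.

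The markers of several cell types moved with these results. The summed ratio of 14 neuronal markers was 103 to 192 in neurons and 13.7 to 16.4 in uninjured axons, with 12 higher and 1 lower (36.9% and 23.0% of all genes). That of 11 astrocyte markers was 170.3 to 278 in neurons and 10.7 to 25.5 in uninjured axons, with 10 higher. These lists hold the members *Eno2* and *Aldoc*. Without them 11 of 13 neuronal markers (96.3 to 169.8 in neurons, 12.7 to 15.5 in uninjured axons) and 9 of 10 astrocyte markers (163 to 269 in neurons, 9.73 to 24.5 in uninjured axons) were higher. Oligodendrocyte markers (9 genes) summed to 43.1 to 53.7 in neurons and 8.53 to 26 in uninjured axons, with 3 higher and 1 lower. Their median ratio in neurons was 1.24, 1.09 and 1.15, near that of all genes (1.17, 1.08 and 1.25), so only part of them carried the sum. Microglial markers (10 genes) summed to 4.45 to 6.0 in neurons and 9.45 to 10.2 in uninjured axons, with 9 lower. Fibroblast and vessel markers were lower for 5 of 9 genes (7.22 to 8.83 in neurons, 8.66 to 10.3 in uninjured axons) and markers of dividing cells for 1 of 5 (5.99 to 8.00 in neurons, 4.58 to 8.26 in uninjured axons). A ratio cannot show a marker to be at 0, so the labelled cell type could not be checked by absence. The part of cell type in the metabolic genes was not tested, and more cells of a type cannot be told apart here from more RNA per cell. The control probe sets of beta-actin moved with the members too. The 3′ probe set read 71.2, 38.4 and 80.1 in neurons, against 0.965 to 1.17 in uninjured axons, and lay above *Gpi* on each neuron array. The 5′ probe set read 41.4, 28.6 and 52.7 in neurons, against 0.852 to 1.06 in uninjured axons, and the middle one 164, 100.2 and 179 in neurons, against 0.948 to 1.30 in uninjured axons. Hybridisation controls, which are spiked in at set amounts, had a median ratio over 18 probe sets of 0.276, 0.910 and 0.157 in neurons and 0.928 to 1.10 in uninjured axons, and the part of these controls in the metabolic genes was not tested.

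Regenerating axons were set against uninjured axons to ask which transcripts differ in axons after a cut. No member passed in either direction, where 0.0352% of all genes were higher and 0.689% lower by the limma test with Benjamini-Hochberg adjustment. At an unadjusted p under 0.05, 0 members were higher (3.67% of all genes) and 8 were lower (8.77% of all genes). Of the 35 genes, 27 were below 0, with a median of -0.29, beside 0.02 over all genes. All 3 regenerating arrays lay below all 6 uninjured arrays for 11 genes (12.5% of all genes) and above them for *Pdk2* alone (10.3% of all genes). When the reference was taken as free of error, 12 members passed as lower, where 14.0% of all genes did, and 0 as higher, where 11.2% did. The 12 were *Gpi*, *Aldoa*, *Tpi1*, *Pgk1*, *Pgam1*, *Eno1*, *Eno2*, *Ldhb*, *Slc16a1*, *Idh3b*, *Idh3g* and *Mdh2*.

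**Figure D3:**
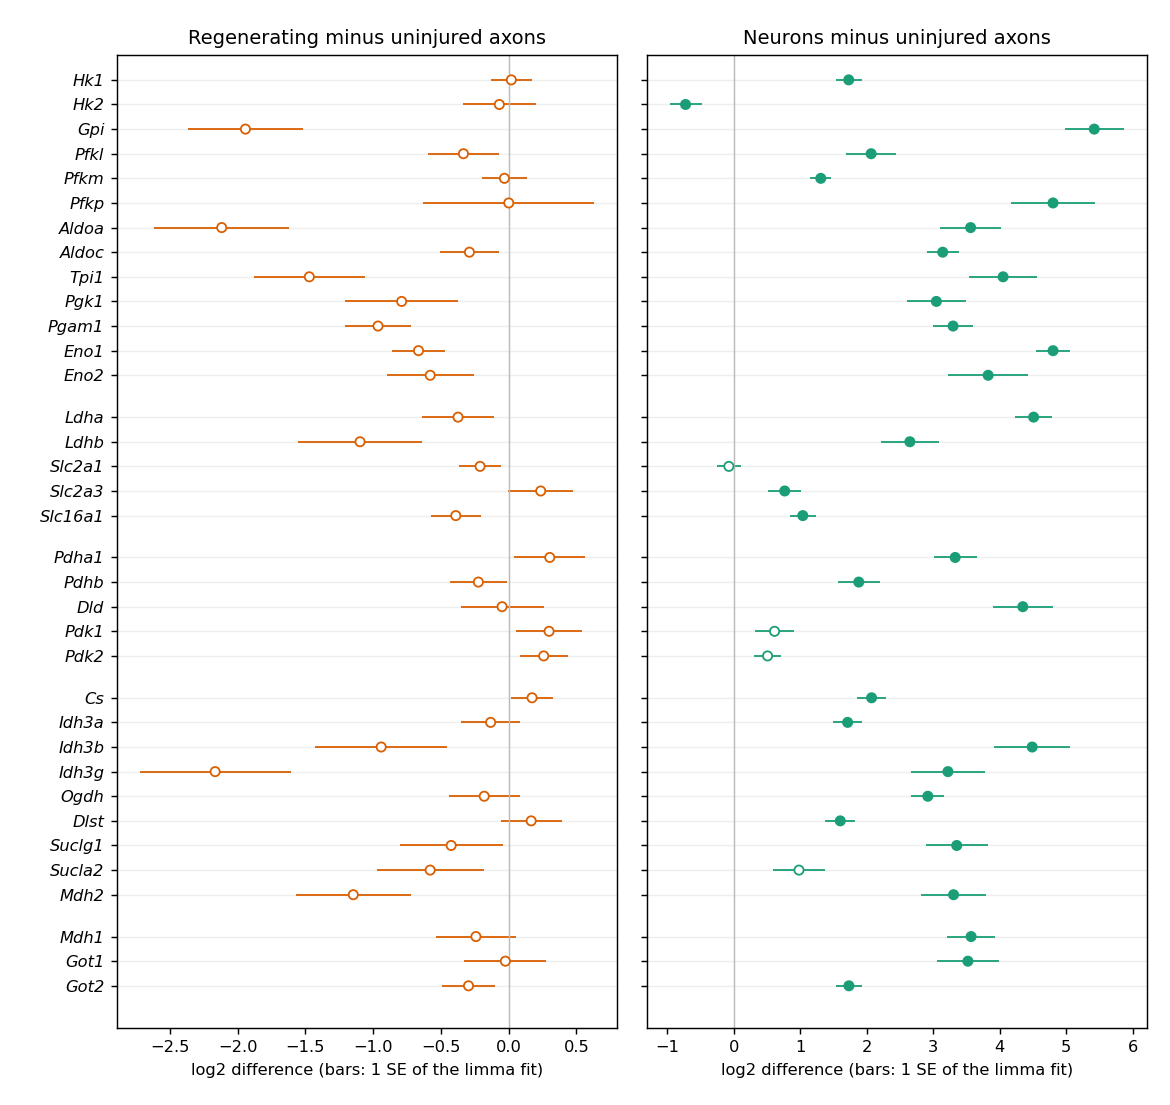
Difference of each gene from uninjured axons (x axis, log2, bars 1 SE of the limma fit), with regenerating axons on the left, neurons on the right and filled points for genes past the threshold. No point is filled for regenerating axons, where *Idh3g*, *Aldoa* and *Gpi* lie lowest at -2.17, -2.12 and -1.94, and 31 points are filled for neurons.

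The 5 lowest glycolysis genes in regenerating axons were *Aldoa*, *Gpi*, *Tpi1*, *Pgam1* and *Pgk1*, enzymes of steps between glucose phosphorylation and enolase. Not every step of this stretch was low. Phosphofructokinase, which lies within it, differed by 0.0012 for *Pfkp*, -0.33 for *Pfkl* and -0.03 for *Pfkm*. *Gpi* read 0.305, 0.20 and 0.288 in regenerating axons, against 0.837 to 2.14 in uninjured axons. All 3 regenerating arrays were below every uninjured array, and the difference of -1.94 ± 0.42 did not pass (adjusted p = 0.0764). It passed without uninjured array 4 (adjusted p = 0.0277), the array with the value of 2.14. *Aldoa* read 0.315, 0.264 and 0.147 in regenerating axons, against 0.807 to 2.02 in uninjured axons (-2.12 ± 0.50, adjusted p = 0.0914). These groups did not overlap either, and the difference passed without uninjured array 3 (adjusted p = 0.0398), which read 2.02. *Tpi1* read 0.436, 0.351 and 0.307 in regenerating axons, against 0.640 to 1.41 in uninjured axons (-1.47 ± 0.41, adjusted p = 0.134). *Pgam1* read 0.526, 0.512 and 0.50 in regenerating axons, against 0.905 to 1.48 in uninjured axons (-0.96 ± 0.25, adjusted p = 0.114). Its 3 regenerating arrays were the closest together of any member (SD 0.04), and it passed without uninjured array 3 (adjusted p = 0.0342).

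*Pgk1* and *Eno1* also had regenerating arrays below all uninjured arrays, with 0.645, 0.523 and 0.574 for *Pgk1* and 0.726, 0.568 and 0.609 for *Eno1*. *Eno2* read 0.822, 0.726 and 0.503 in regenerating axons, against 0.637 to 1.08 in uninjured axons (-0.58 ± 0.32, adjusted p = 0.532), with overlap. *Pfkl* (-0.33 ± 0.26), *Aldoc* (-0.29 ± 0.22) and *Pfkm* (-0.03 ± 0.17) also overlapped with the uninjured arrays. *Hk1* read 0.984, 0.985 and 1.08 in regenerating axons, against 0.904 to 1.06 in uninjured axons. *Pfkp* read 1.01, 1.08 and 0.925 in regenerating axons, inside the range of 0.662 to 3.05 in uninjured axons. *Hk2*, lower in neurons, read 0.818, 0.852 and 1.24 in regenerating axons, against 0.823 to 1.21 in uninjured axons (-0.07 ± 0.27). The median over the 13 glycolysis genes was -0.58.

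Among the lactate and transport genes, *Ldhb* read 0.626, 0.300 and 0.545 in regenerating axons, against 0.504 to 1.08 in uninjured axons (-1.10 ± 0.46, adjusted p = 0.355). Its groups overlapped through uninjured array 1, the lowest at 0.504. *Ldha* read 1.05, 0.619 and 0.711 in regenerating axons, against 0.945 to 1.18 in uninjured axons (-0.37 ± 0.26). *Slc16a1* (-0.39 ± 0.18) and *Slc2a1* (-0.21 ± 0.16) had all regenerating arrays below all uninjured arrays, by small amounts. *Slc2a3* read 1.09, 1.12 and 1.34 in regenerating axons, against 0.788 to 1.24 in uninjured axons (0.24 ± 0.24).

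Pyruvate dehydrogenase and its kinases were the group whose median lay above 0, at 0.26, with values of -0.22 to 0.30 and none past the threshold. *Pdk2* read 1.35, 1.09 and 1.16 in regenerating axons, against 0.850 to 1.05 in uninjured axons (0.26 ± 0.18, adjusted p = 0.653), without overlap. *Pdk1* read 1.25, 1.32 and 1.12 in regenerating axons, against 0.747 to 1.16 in uninjured axons (0.30 ± 0.24). *Pdha1* and *Dld* overlapped with the uninjured arrays at 0.30 ± 0.26 and -0.05 ± 0.31.

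The citric acid cycle genes were uneven in regenerating axons, with a median of -0.42. *Idh3g* had the lowest mean of all members, at 0.339, 0.226 and 0.145 in regenerating axons, against 0.564 to 1.64 in uninjured axons (-2.17 ± 0.56, adjusted p = 0.115). All 3 arrays were below the uninjured range, but they differed among themselves more than those of any other member (SD 0.61). The subunits of the same enzyme were closer to 1. *Idh3b* read 0.609, 0.557 and 0.417 in regenerating axons, against 0.584 to 1.61 in uninjured axons (-0.94 ± 0.48), and *Idh3a* stayed within the uninjured range in regenerating axons (-0.13 ± 0.22). *Mdh2* read 0.443, 0.415 and 0.501 in regenerating axons, against 0.537 to 1.62 in uninjured axons (-1.15 ± 0.42, adjusted p = 0.274), without overlap. *Cs* (0.17 ± 0.16) and *Dlst* (0.17 ± 0.23) were above 0 and did not pass. The shuttle genes *Mdh1*, *Got1* and *Got2* lay between -0.30 and -0.02, all with overlap.

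Glyceraldehyde-3-phosphate dehydrogenase, the glycolytic enzyme between *Tpi1* and *Pgk1*, is on the array as control probe sets for its 3′ end, middle and 5′ end. The 3′ probe set read 0.355, 0.159 and 0.142 in regenerating axons, 13.7, 7.19 and 16.6 in neurons and 0.620 to 1.42 in uninjured axons. The 5′ probe set read 0.495, 0.350 and 0.250 in regenerating axons, 64.1, 24 and 70.8 in neurons and 0.599 to 1.10 in uninjured axons. For both probe sets the regenerating arrays lay below and the neuron arrays above every uninjured array. The 3′ probe set of beta-actin, a check of RNA quality, read 0.809, 0.693 and 0.625 in regenerating axons, against 0.965 to 1.17 in uninjured axons. Its 5′ probe set read 0.796, 1.07 and 0.824 in regenerating axons, against 0.852 to 1.06 in uninjured axons. The summed neuronal markers were 8.46 to 10.8 in regenerating axons and 13.7 to 16.4 in uninjured axons, with 4 of 14 at an unadjusted p under 0.05, all lower, and none past the adjusted threshold. Astrocyte markers summed to 9.55 to 10.1 in regenerating axons and 10.7 to 25.5 in uninjured axons, oligodendrocyte markers to 7.38 to 7.92 in regenerating axons and 8.53 to 26 in uninjured axons, and microglial markers to 12.8 to 13.0 in regenerating axons and 9.45 to 10.2 in uninjured axons. Fibroblast and vessel markers summed to 8.08 to 8.72 in regenerating axons and 8.66 to 10.3 in uninjured axons, and markers of dividing cells to 5.16 to 5.69 in regenerating axons and 4.58 to 8.26 in uninjured axons. The hybridisation controls had a median of 1.14, 1.44 and 1.57 in regenerating axons. The part of these shifts in the metabolic genes was not tested.

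The comparison of regenerating axons with neurons was fitted on these arrays alone and holds if both were divided by the same reference. Of the 35 genes, 31 were lower in regenerating axons, where 44.2% of all genes were, and *Hk2* was higher, where 31.3% of all genes were. *Slc2a1*, *Pdk1* and *Pdk2* did not pass. These regenerating and neuron arrays are those already set against uninjured axons, so this comparison is not independent of the other two. *Gpi* differed most, at -7.36 ± 0.25 (165-fold, adjusted p = 6.60e-07), the 20th lowest of 14217 genes. *Aldoa* (-5.68 ± 0.32), *Tpi1* (-5.52 ± 0.30), *Eno1* (-5.47 ± 0.20), *Idh3b* (-5.43 ± 0.31) and *Idh3g* (-5.39 ± 0.38) followed. Medians were -4.26 for glycolysis, -1.43 for lactate and transport, -2.10 for pyruvate dehydrogenase and its kinases, -3.10 for the citric acid cycle and -3.55 for the shuttle, beside -0.23 over all genes. Under the alternatives described below these medians moved. They ranged from -3.24 to -1.22 for lactate and transport, from -3.78 to -2.50 for the cycle and from -4.57 to -3.05 for the shuttle. These ranges overlap, so the order of the groups is not settled.

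*Hk2* was higher in regenerating axons than in neurons by 0.66 ± 0.20 (adjusted p = 0.0190), with no overlap between 0.818 to 1.24 in regenerating axons and 0.527 to 0.698 in neurons. The call was lost without neuron array 1, neuron array 3 or regenerating array 3 (adjusted p from 0.0547 to 0.0598). In the same comparison the median of the 15 isoforms known mainly from other tissues was 0.68. *Slc2a3* was lower in regenerating axons (-0.53 ± 0.15, adjusted p = 0.0145), and lost its call without regenerating array 1 or 2 (adjusted p = 0.0525 and 0.0505) or with the arrays shifted to the same median (-0.32, adjusted p = 0.0793). Its probe sets, fitted by themselves, differed by -1.77 ± 0.19 and 0.71 ± 0.17, both past the threshold. *Slc2a1* differed by -0.14 ± 0.15, and by 0.07 with the arrays shifted to the same median, so it has no settled direction. *Pdk1* and *Pdk2* differed by -0.32 ± 0.18 and -0.25 ± 0.16, and *Pdk1* passed without neuron array 2 (-0.48, adjusted p = 0.0212). Fitted by itself, a probe set of each was lower, at -1.05 ± 0.27 for *Pdk1* (adjusted p = 0.00766) and -0.79 ± 0.19 for *Pdk2* (adjusted p = 0.00523). The other probe set of *Pdk1* was higher (0.42 ± 0.15, adjusted p = 0.0316), and that of *Pdk2* did not pass.

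Probe sets of the same gene often disagreed. Of the 35 genes, 23 have 1 probe set and 12 have several, and 8 of these 12 had probe sets of opposite sign in neurons against uninjured axons. With each probe set fitted by itself over 31042 probe sets, 39 of the 51 were higher in neurons (28.4% of all) and 3 were lower (27.5% of all), so 23 genes were higher by every probe set and *Hk2* was lower. In regenerating against uninjured axons 0 of the 51 probe sets passed in either direction (0.00966% of all higher, 0.335% lower). In regenerating axons against neurons 39 were lower (35.2% of all) and 7 higher (37.3% of all). There 10 of the 12 genes had probe sets of opposite sign, and 6 (*Cs*, *Got2*, *Hk1*, *Pdk1*, *Pfkm* and *Slc2a3*) had probe sets past the threshold in opposite directions. By every probe set 23 genes were lower and *Hk2*, with 1 probe set, was higher.

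*Cs* was the plainest case, with probe sets at 39.1, 29.5 and 58.0 in neurons for the highest of its 4 probe sets and at 0.577, 0.696 and 0.598 for the lowest. Those between read 4.02, 4.36 and 5.76 and 2.24, 2.32 and 3.70 in neurons. Against uninjured axons the highest probe set differed by 5.34 ± 0.33 and the lowest by -0.69 ± 0.22 (adjusted p = 0.0244), both past the threshold. *Hk1* had a probe set at 14.3, 13.9 and 18.5 in neurons and another at 0.635, 0.686 and 0.834. Its 3 control probe sets, kept out of the gene value, read 5.55, 3.96 and 7.61 at the 3′ end, 0.729, 0.928 and 0.660 in the middle and 1.07, 1.02 and 1.17 at the 5′ end, and with them the *Hk1* difference was 1.13 and still passed. *Pfkm* had probe sets at 2.82 ± 0.21, 2.03 ± 0.20 and -0.91 ± 0.20, the last also past the threshold (adjusted p = 0.00358). *Got2*, *Pdk1*, *Slc16a1*, *Slc2a3* and *Sucla2* each had a probe set below 0 in neurons that did not pass. The gene values of these 8 are means over such sets and understate the highest probe set.

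For *Pgk1* the regenerating arrays divided by probe set. It read 0.211, 0.22 and 0.191 in regenerating axons in a probe set where uninjured axons spanned 0.373 to 4.17, and 1.03, 1.07 and 1.83 in another where uninjured axons spanned 0.967 to 1.14. In neurons the first of these read 42.1, 25.4 and 48.6 and the other 1.24, 1.18 and 1.22. For *Sucla2* a probe set read 0.594, 0.402 and 0.369 in regenerating axons and the other 0.936, 1.33 and 0.817.

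**Figure D4:**
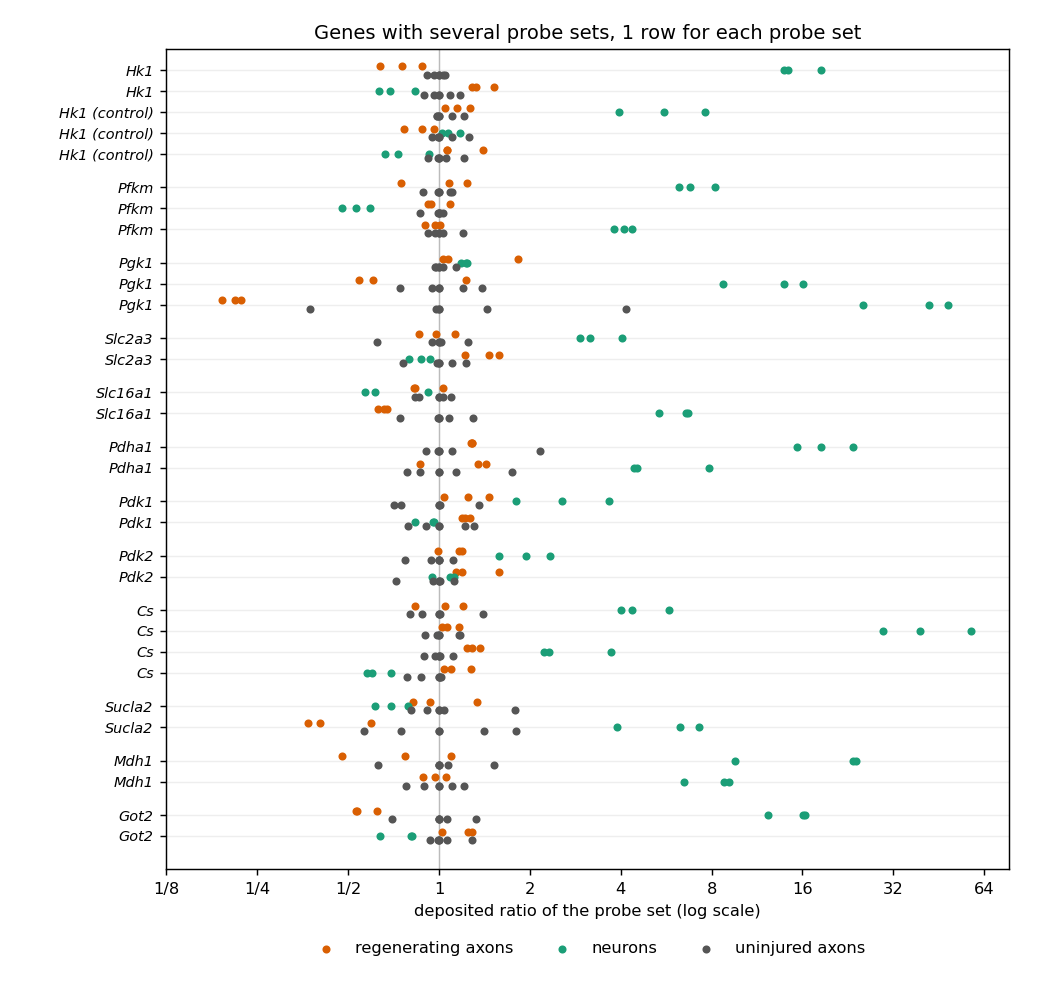
Deposited ratio (x axis, log scale) of each probe set of the 12 genes with several, and of the 3 control probe sets of *Hk1*, 1 row each, with regenerating, neuron and uninjured arrays as points. The neuron points of *Cs* run from 0.577 to 58.0 across its 4 probe sets.

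In 16 pairs, isoforms and subunits were set against each other as differences of log2 ratios within an array, which cancels any shift common to the array. Such a difference keeps any error of the reference in either gene, which all arrays divided by that reference would share. These pairs were chosen with their values known and carry no test. *Aldoa* minus *Aldoc* was -1.30, -1.85 and -2.34 in regenerating axons and 0.23 to 0.58 in neurons, the first below and the second within the range of -0.45 to 1.01 in uninjured axons. *Idh3g* minus *Idh3a* was -1.44, -2.16 and -2.50 in regenerating axons and 1.80, 0.89 and 1.83 in neurons, on either side of the uninjured range of -0.83 to 0.71. *Idh3b* minus *Idh3g* was 0.85, 1.30 and 1.53 in regenerating axons and 1.28, 1.26 and 1.26 in neurons, above the uninjured range of -0.78 to 0.68 in both groups. *Ldha* minus *Ldhb* was 1.85, 1.93 and 1.80 in neurons, above the uninjured range of -0.11 to 0.99, and *Pfkp* minus *Pfkm* was 3.41, 3.44 and 3.63, above -0.58 to 1.63. The *Pfkm* value is a mean over probe sets at 2.82, 2.03 and -0.91 in neurons against uninjured axons, so the size of its gap depends on the probe set. *Pdk1* minus *Pdk2* stayed inside the uninjured range in neurons.

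The members varied more than most genes among uninjured axons. Their median SD about the mean of the ratio set was 0.26 on the log2 scale, beside 0.19 over all genes, and in regenerating axons 0.18 beside 0.16, in neurons 0.33 beside 0.22. *Pfkp* (0.82), *Idh3b* (0.59) and *Idh3g* (0.58) had the widest spread among uninjured axons, above that of 96.1% of all genes or more. *Pfkm* (0.06), *Slc2a1* (0.08) and *Hk1* (0.09) had the narrowest. Uninjured array 4 stood apart in the summed ratios of glial markers. These were 25.5 for astrocyte genes and 26 for oligodendrocyte genes, beside at most 12.5 and 9.81 in the other uninjured arrays. Array 4 nonetheless had median ratios of 1.002 over the astrocyte and 1 over the oligodendrocyte markers, so only part of them carried the sums. It was the highest uninjured array for 9 of the 35 genes (18.5% of all genes), among them *Pfkp* (3.05), *Gpi* (2.14), *Got1* (1.65) and *Mdh2* (1.62), and the lowest for 7 (22.5% of all genes). Without it, 31 members were higher in neurons, 1 was lower, and *Gpi* alone passed as lower in regenerating axons.

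Another 80 genes were taken from lists chosen with earlier results known. Of these, 41 were higher in neurons than in uninjured axons and 15 lower, where 36.9% and 23.0% of all genes were, and the counts of the lists are to be read against those shares. Among 17 further genes of the citric acid cycle and shuttles, 14 were higher in neurons than in uninjured axons, led by *Acly*, the ATP citrate lyase that starts fatty acid synthesis (5.20 ± 0.47), and *Glud1*, glutamate dehydrogenase (4.72 ± 0.28). Among 15 genes of pyruvate and lactate handling, 9 were higher and 1 lower, with *Bsg*, the chaperone of monocarboxylate transporters (3.39 ± 0.34), and *Me1*, malic enzyme (3.28 ± 0.27), at the top and the lactate dehydrogenase *Ldhd* at the bottom (-1.18 ± 0.24). Of 7 pentose phosphate genes 4 were higher, among them *Tkt* (3.99 ± 0.34) and *Taldo1* (3.04 ± 0.46), and *H6pd*, the form in the endoplasmic reticulum, was lower (-0.97 ± 0.27). Of 10 regulators and minor enzymes of glycolysis 5 were higher and 1 lower, with *Pgm2* (2.21 ± 0.59) and *Bpgm* (1.92 ± 0.30) at the top and *Hkdc1* at the bottom (-0.85 ± 0.29).

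Of 15 isoforms known mainly from liver, muscle, blood or testis, 0 were higher in neurons and 10 were lower, with a median of -0.84, led by *Pck1* (-1.49 ± 0.41) and *Pfkfb1* (-1.23 ± 0.24). In regenerating axons 0 of the 15 passed against uninjured axons, and 12 were higher than in neurons (31.3% of all genes), led by *Pck1* (1.63 ± 0.32) and the fructose transporter gene *Slc2a5* (1.23 ± 0.18). Of 16 known genes of the hypoxia-inducible factor pathway 9 were higher in neurons, with *Ddit4* (4.07 ± 0.45) and *Hif1a* (4.04 ± 0.45) first, and *Arnt* (-1.34 ± 0.33) and *Car9* (-1.26 ± 0.26) were lower. None of the 16 passed in regenerating against uninjured axons, where 1 was higher and 0 lower at an unadjusted p under 0.05 (3.67% and 8.77% of all genes).

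In regenerating against uninjured axons, 1 of these 80 genes was higher and 1 lower, where 0.0352% and 0.689% of all genes were. *Pdp1*, the phosphatase that reactivates pyruvate dehydrogenase after its kinases, read 1.94, 2.00 and 2.08 in regenerating axons, against 0.953 to 1.21 in uninjured axons (1.0 ± 0.18, adjusted p = 0.0459). *Slc25a12*, the aspartate-glutamate carrier of the malate-aspartate shuttle, read 0.292, 0.303 and 0.445 in regenerating axons, against 0.748 to 1.07 in uninjured axons (-1.56 ± 0.27, adjusted p = 0.0378). Groups did not overlap for either gene. Both calls were near the threshold: *Pdp1* lost its call without regenerating array 2 or 3 or uninjured array 2, 3, 5 or 6 (adjusted p from 0.0508 to 0.122), and *Slc25a12* without regenerating array 2 or 3 or uninjured array 2, 5 or 6 (adjusted p from 0.0549 to 0.116). *Mpc1* and *Mpc2*, which form the mitochondrial pyruvate carrier, did not pass (adjusted p = 0.171 and 0.16). *Mpc1* read 0.301, 0.207 and 0.192 in regenerating axons, against 0.331 to 1.52 in uninjured axons. *Mpc2* read 0.241, 0.117 and 0.178 in regenerating axons, against 0.335 to 2.05 in uninjured axons. The groups did not overlap for either gene. Against neurons both were lower in regenerating axons, with differences of -5.18 ± 0.32 for *Mpc1* and -4.73 ± 0.34 for *Mpc2*.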

How the data were processed

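Expression was measured on 13 GeneChip arrays (3 of regenerating axons, 3 of neurons, 7 of uninjured axons). The deposited values are linear ratios per probe set. Per the submitters' processing notes RMA (background correction, normalisation and summary per probe set) was used, with no version given. How the ratios were formed was read from the values: the median over uninjured arrays 1 to 3 is 1 in 100% of rows, likewise over arrays 4 to 6 (tolerance 0.0001), and array 7 is 1 throughout.

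Symbols came from the platform annotation. Leaving controls aside, it gave 1 symbol to 20826 of 31042 probe sets, several to 436 and none to 9780. Log2 ratios were averaged over the single-symbol probe sets of a gene. All were fitted by lmFit and eBayes of limma 3.58.1 in R 4.3.3 over 14217 genes with Benjamini-Hochberg adjustment and a threshold of 0.05. Against uninjured axons, the spread combined that of the 3 arrays with that of the uninjured ones around each set's mean, and the reference carried the error of 1 array. Regenerating axons and neurons were fitted as 2 groups. The fits were also run on simulated data in which both groups were divided by the same 1 array. That run could not check what the deposited ratios were divided by. Alternatives left out the reference error, shifted arrays to the same median, changed the choice of probe sets, used 1 spread for all groups, added a replicate block and left out each array. Another 2, with control probe sets of 1 symbol included and with each probe set fitted by itself, were chosen after seeing the data.

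All measured members may be named in every comparison. Of the other pathway genes, the genes past the threshold with the largest differences, up to 2 in each direction, are named per list and comparison, and those named are among these, except *Mpc1* and *Mpc2* in regenerating against uninjured axons, which were chosen after their values were seen. The members and lists were chosen with earlier results of these data known. Promoter windows came from RefSeq on GRCr8, used for sequence and position only. No set test was run.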

Additional observations from a re-analysis of the deposited data

Results flagged for a closer look

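Within the 6 uninjured arrays, 8 of the 35 genes (22.9%) had an array far from the other 5, with a gap to the nearest array above 0.625 of the whole range, beside 17.2% of all genes. Chance alone sets apart about 1 in 20 groups, and the division of each set of 3 by its own median also shapes these values. Array 4 accounted for 5 of the 8. It was the highest for *Pfkp* at 3.05 (next 1.08), for *Gpi* at 2.14 (next 1.01) and for *Pdhb* at 1.32 (next 1.01), and the lowest for *Eno2* at 0.637 (next 0.947) and *Idh3a* at 0.746 (next 0.990). The same array had summed ratios of 25.5 for astrocyte markers and 26 for oligodendrocyte markers. Its median ratios over these markers were 1.002 and 1. The part of these markers in the 5 genes was not tested. *Suclg1* was lowest in array 6 at 0.527 (next 0.860), *Pfkl* lowest in array 5 at 0.638 (next 0.925) and *Slc2a1* highest in array 6 at 1.12 (next 1.01).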

How the results depend on the processing

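Under the alternatives that give 1 value per gene, the direction of every called difference of the 35 genes held, and calls changed for 5 genes in neurons against uninjured axons, for 12 in regenerating against uninjured axons and for 4 in regenerating axons against neurons. Higher in neurons than in uninjured axons were 29 to 33 genes when 1 array was left out (30 with all). Lower were 0 to 1, with *Hk2* lost without neuron array 1 or 3. In regenerating against uninjured axons, 12 genes passed as lower with the reference error left out and 0 to 2 with 1 array left out. In regenerating axons against neurons, 30 to 32 genes were lower and 0 to 1 higher with 1 array left out. Counting genes whose every probe set passed by itself, 23 were higher in neurons against uninjured axons (with *Cs* and *Pfkm* each having a probe set called lower) and 23 were lower in regenerating axons against neurons, beside 30 and 31 by gene.

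The arrays of different groups share numbers in the labels, which do not state whether the numbers pair them. Same-numbered arrays correlated above 0.1 in 3 of 9 cases (-0.39 to 0.19), and 2 of 9 arrays correlated best with their own number. With so few arrays, and with the uninjured ones divided by the median of their set, these correlations cannot decide whether arrays are paired. With a replicate block 32 genes were higher in neurons and 1 lower, and 1 was lower in regenerating against uninjured axons (*Gpi*, adjusted p = 0.0313).

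Counts over all genes in regenerating against uninjured axons, 5 higher and 98 lower, were 1588 and 1990 with the reference error left out, 2 and 48 with 1 spread for all groups, 38 and 319 with the block, and 0 to 15 and 0 to 361 with 1 array left out. With 1 spread for all groups *Pdp1* and *Slc25a12* no longer passed (adjusted p = 0.144 and 0.111). *Pfkfb2*, which makes and degrades a regulator of phosphofructokinase, was higher in regenerating axons than in neurons by 0.38 ± 0.14 (adjusted p = 0.0405), but differed by -1.52 with the probe set of highest mean and by -0.12 without probe sets that may match several transcripts. The cause was not tested. Ratios give no signal over background, so weak probe sets could not be set aside.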
